A study of Mus musculus with 16 samples.

Results

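Cyp46a1 is 1 of the 55357 genes in the count table of this liver series, and its values were followed across all 16 libraries. It encodes cholesterol 24-hydroxylase, a cytochrome P450 enzyme of the endoplasmic reticulum. The gene was chosen by its measured counts, which differed between the 2 mouse lines of the series and went against the line in 1 library, del7 replicate 1. Those 2 contrasts are therefore described here without a test.

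The series compared livers of 2 telomerase RNA (Terc) mutants with wild-type livers of the same lines, 4 samples per group. AUG livers have the genotype label mTERC CUG/AUG, and AUG_WT livers are the wild types of that line. In del7 livers Terc lacks 7 nucleotides, at positions 29 to 35, and del7_WT livers are the wild types of that line. No treatment was given to any group, and strain and age are not given in the sources used here. AUG and AUG_WT together are called the AUG line, and del7 and del7_WT the del7 line, with 8 libraries each. The label CUG/AUG is kept as it stands, since it does not say whether it names a codon change or a pair of alleles. Replicates are numbered in the labels with no word on separate animals, so a p-value speaks only of the spread among these samples, which may be technical.

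Cholesterol 24-hydroxylase adds a hydroxyl group to the side chain of cholesterol and yields 24S-hydroxycholesterol. It is best known from neurons, where this step lets the brain export cholesterol, and its product is a ligand of the liver X receptors (LXR). In liver, related P450 enzymes open the routes from cholesterol to oxysterols and bile acids: Cyp7a1 is the rate-limiting enzyme of bile acid synthesis, Cyp27a1 hydroxylates the sterol side chain, and Cyp7b1 and Cyp39a1 act on oxysterols, Cyp39a1 on 24-hydroxycholesterol.

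The RefSeq sequence just before the gene's annotated start is shown because it is the promoter of the one gene whose level is at issue. It is the reference sequence of build GRCm38.p6, chr12:108334066-108334267 on the plus strand, 202 bases, and was not read from these mice. Capitals mark the GC box, GGGCGG, which was searched on both strands.
Cyp46a1 promoter: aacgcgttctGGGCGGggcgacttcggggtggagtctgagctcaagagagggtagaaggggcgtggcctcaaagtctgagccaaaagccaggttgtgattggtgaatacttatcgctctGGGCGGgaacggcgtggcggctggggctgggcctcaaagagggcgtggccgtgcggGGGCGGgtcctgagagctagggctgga
The window holds 3 GC boxes, all on the plus strand. Of 32817 RefSeq promoter windows of the same length, 25.02% hold at least 1 GC box and 4.50% hold 3 or more. Those windows were cut to this length from their upstream end, so they need not reach the start of their own gene. The window also holds 1 CCAAT on the minus strand, a motif present in 28.8% of windows on either strand, and no TATAAA, which is in 9.22% of windows. None of these matches overlap. G and C make up 64.4% of its bases, against a median of 51.5% over all windows.

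Libraries held 7714058 to 14629022 counts in genes. A single library, AUG_WT replicate 1, differed from the rest: 35.0% of its reads were assigned to no annotated feature in the counting. Its TMM scaling factor was 1.36, and its median correlation with the other libraries was 0.865. Its hepatocyte markers summed to 44270 in counts scaled to library size (CPM), against 97559 to 158020 CPM in the other 15, and its lymphocyte markers to 793 CPM, against 36.9 to 336 CPM. Among the line differences given below, those whose log2 fold change it moves most are given with and without it. Adjusted p-values in the fit without it are given for only some genes. All 12 hepatocyte markers were detected and tested, as the labelled tissue calls for.

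Cyp46a1 was detected in every library, and its level followed the line rather than the Terc genotype, with 1 exception. Counts were 52, 57, 52 and 196 in AUG replicates 1 to 4 and 17, 35, 96 and 120 in AUG_WT replicates 1 to 4. The 4 del7 replicates, in order, held 41, 2419, 1429 and 1399 counts, and the 4 del7_WT replicates 1920, 3287, 965 and 3213. All 8 AUG line libraries and del7 replicate 1 had 196 counts or fewer, and the other 7 del7 line libraries had 965 or more.

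Scaled for library size, AUG livers had 4.62, 5.997, 4.95 and 15.6 CPM. AUG_WT livers had 1.19, 3.32, 10.9 and 9.58 CPM. In del7 livers the values were 3.24, 195, 137 and 174 CPM, and in del7_WT livers 134, 305, 125 and 287 CPM. Apart from del7 replicate 1 the lines did not overlap: the lowest of the other 7 del7 line libraries was 8.01-fold above the highest AUG line library. Over all genes tested, 0.250% had lines that did not overlap once del7 replicate 1 was left aside, and 0.173% with all 16 libraries.

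**Figure D1:**
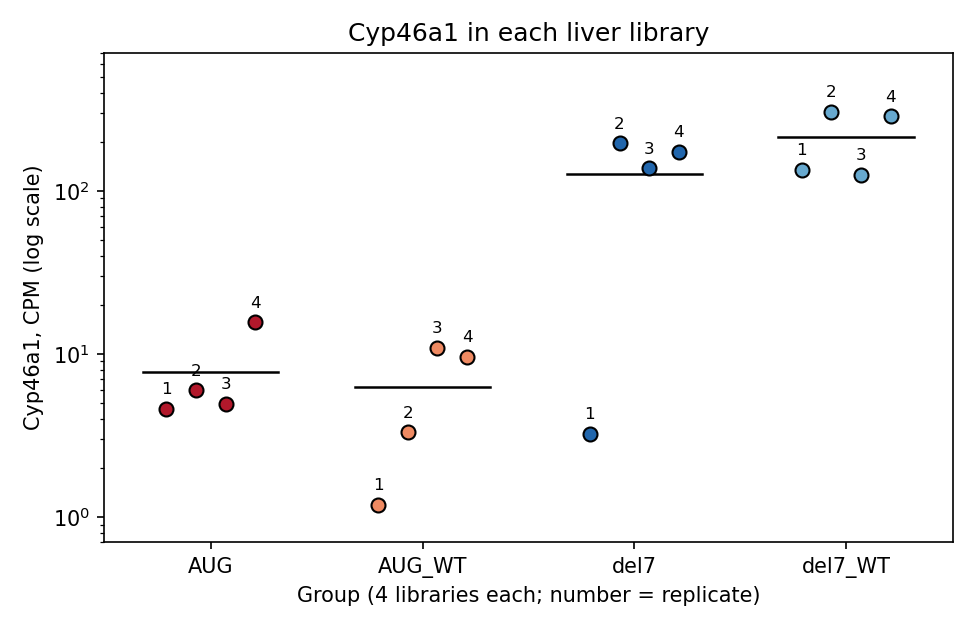
Cyp46a1 in CPM (log axis) in each library, by group. Points are single libraries numbered by replicate, and horizontal lines are group means. The AUG and AUG_WT libraries lie between 1.19 and 15.6 CPM, and del7 replicate 1, at 3.24 CPM, lies among them rather than with the other del7 line libraries at 125 to 305 CPM.

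The 4 AUG livers averaged 7.80 ± 5.26 CPM and the 4 AUG_WT livers 6.25 ± 4.72 CPM, while del7 livers averaged 127 ± 86.2 CPM and del7_WT livers 213 ± 96.5 CPM (SD, n = 4 each). In the order from high to low, del7_WT and del7 lay within 1 SD of each other, and so did AUG and AUG_WT. Without its replicate 1, del7 averaged 169 ± 29.3 CPM (SD, n = 3). The highest library of a group exceeded its lowest 3.38-fold in AUG, 9.15-fold in AUG_WT, 60.3-fold in del7 (1.42-fold without replicate 1) and 2.44-fold in del7_WT. AUG replicate 4 was the highest of its line, and AUG_WT replicate 1, the library that stood apart, was the lowest of all 16.

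The fitted level in the AUG line was 23.7-fold lower than in the del7 line, a log2 fold change of -4.56 (SE 0.66). No p is given for it, since the gene was chosen for this difference. By size the change ranked 23 among the 14421 genes tested. The wild types alone gave -5.11 (SE 0.95) for AUG_WT over del7_WT, and the mutants alone gave -4.02 (SE 0.90) for AUG over del7. Leaving out del7 replicate 1 gave -4.78 for the lines, and leaving out AUG_WT replicate 1 gave -4.39. In bulk liver, fewer cells that express a gene and less RNA per cell cannot be told apart. The labels give no batch, so line and any batch that follows it also cannot be told apart.

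Reads came from the gene's own strand. Only 14 reads in all libraries together lay on the opposite strand of Cyp46a1, with at most 3 in a library, against 15298 on its own strand. Counting without strand changed the line difference by less than its SE.

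Within the AUG line, where the choice of the gene did not use the contrast, Cyp46a1 was not called. AUG over AUG_WT came to 0.36 on the log2 scale (SE 0.88; adjusted p = 0.924 by the quasi-likelihood test of edgeR). On log2 CPM the AUG mean was 2.81 and the AUG_WT mean 2.26, a difference of 0.55 that did not pass an exact two-sided permutation test (p = 0.571, n = 4 each, smallest possible p = 0.0286). This comparison called 4 genes of 14421, 0.0277%. The sign rested on a single library: without AUG replicate 4 the log2 fold change was -0.25. Without AUG_WT replicate 1 it stayed positive, at 0.01.

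For del7 over del7_WT the log2 fold change was -0.74 (SE 0.78), given with no p because del7 replicate 1 entered the choice of the gene. Without that library it was -0.34. Over all genes edgeR called 0 of 14421 in this comparison (0%), DESeq2 called 1 and limma voom 0, while 277 genes, 1.92%, had an unadjusted p under 0.05. The AUG effect minus the del7 effect was 1.10 (SE 1.17).

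Set beside other P450 genes per kilobase of annotated exon, Cyp46a1 was a low-ranking member in the AUG line and a middle-ranking one in the del7 line. It averaged 2.37 ± 1.60 CPM per kilobase in AUG, 1.90 ± 1.44 in AUG_WT, 38.8 ± 26.2 in del7 and 64.8 ± 29.4 in del7_WT (SD, n = 4 each). Among 68 tested P450 genes these levels ranked 60, 61, 39 and 33 from the top. On the same scale Cyp27a1 stood at 157, 141, 148 and 162 CPM per kilobase in AUG, AUG_WT, del7 and del7_WT, and Cyp39a1 at 9.99, 8.32, 7.93 and 10.1. Cyp46a1 was thus below Cyp39a1 in the AUG line and above it in the del7 line, in means over libraries. The leading liver P450, Cyp2e1, had 2099, 2012, 2038 and 2562 CPM per kilobase in the same groups.

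None of the other 67 tested P450 genes was called between the lines, in a comparison that called 51 of 14421 genes, 0.354%. Their log2 fold changes ran from -0.97 to 1.37 with a median of -0.06, against a median of 0.02 over all genes, and 38 of the 67 were negative. The smallest adjusted p among them was 0.179, for Cyp3a13, a xenobiotic-metabolising P450 at 1.051 on the log2 scale (SE 0.28). Without AUG_WT replicate 1, when 0.768% of genes were called, and without del7 replicate 1, when 0.259% were, 0 of the 67 were called as well.

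The enzymes that share cholesterol and oxysterols with Cyp46a1 are given by their values, since 0 called in a list of this size is near the share over all genes, 0.354%. Of 17 oxysterol and bile acid genes, 14 were tested and 0 called in either direction (median log2 fold change -0.06). For Cyp7a1 the mean was 422 ± 251 CPM among AUG livers, 240 ± 146 among AUG_WT livers, 445 ± 173 among del7 livers and 248 ± 159 among del7_WT livers (SD, n = 4 each), with a line difference of -0.06 on the log2 scale (SE 0.39; edgeR adjusted p = 0.986). Its groups overlapped widely. Cyp27a1 had -0.06 (SE 0.17), Cyp39a1 0.03 (SE 0.16) and Cyp7b1 0.71 (SE 0.29), with edgeR adjusted p-values of 0.971, 0.986 and 0.479. Without AUG_WT replicate 1 Cyp7b1 had 0.86 (SE 0.22, edgeR adjusted p = 0.0840). Ch25h, the cholesterol 25-hydroxylase, did not pass the filter on low counts: it had 34 counts in AUG_WT replicate 1 and at most 5 in any other library. The smallest adjusted p in the list was 0.313, for Gpr183, the oxysterol receptor that guides lymphocytes, at 2.30 (SE 0.73), and 0.80 (SE 0.33) without AUG_WT replicate 1. Lymphocyte markers had the same sign: all 10 tested were positive, with a median of 1.45, and 0.48 without AUG_WT replicate 1. Their part in the Gpr183 value was not tested.

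LXR target genes and cholesterol synthesis genes were set against all tested genes, whose median line difference was 0.02. Of 17 LXR receptors and targets, 0 were called, again near the 0.354% of all genes. Their median was 0.06 and their range -0.20 to 0.42. The upper end was Srebf1, the LXR-driven regulator of fatty acid synthesis, at an edgeR adjusted p of 0.468. Without AUG_WT replicate 1 Srebf1 had 0.51 (SE 0.13, edgeR adjusted p = 0.0893). Of 27 genes of the SREBP2 axis and cholesterol synthesis, 0 were called and 22 were negative, with a median of -0.11. Of 15 tested genes of cholesterol uptake, transport and esterification, 0 were called, and Soat1, which esterifies cholesterol, had the smallest adjusted p at 0.495. Of 16 genes that supply electrons and haem to P450 enzymes, 0 were called. The nearest was Alad, a haem synthesis enzyme, at 0.75 (SE 0.20; edgeR adjusted p = 0.170). Without AUG_WT replicate 1 Alad was called, at 0.83 (edgeR adjusted p = 0.0319), and no other gene of these 5 pathway lists was.

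Because Cyp46a1 is best known from neurons, neuron and glia markers were read in the same libraries. Of 17 markers 5 passed the filter and 0 were called; Elavl4 had no count in any library, Snap25, Nefl, Nefm and Gad2 had at most 1 in a library, and Rbfox3 and Tubb3 at most 13 and 15. Syt1, a synaptic vesicle protein gene, reached 501 counts. The summed level of the list was 22.6 to 32.2 CPM in AUG, 26.5 to 51.8 in AUG_WT, 24.7 to 39.1 in del7 and 30.8 to 53.4 in del7_WT, ranges that overlapped. In del7 replicate 1 it was 24.7 CPM, the lowest of the del7 line. Of the 5 tested markers Aqp4, an astrocyte water channel also known elsewhere, had the smallest adjusted p, 0.621. Over the del7 line the 5 tested markers had a median r with Cyp46a1 (log2 CPM) of 0.56, the highest of the 14 lists. Their r ran from -0.49 for Mbp to 0.69 for Aqp4. Without del7 replicate 1 the median was 0.35, below the cholesterol synthesis (0.63), stellate cell (0.44) and bile duct (0.40) lists. Over the AUG line the median of the neuron and glia markers was 0.02. The part of neural cells in the Cyp46a1 values was not tested.

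Markers of the liver's cell types, read against the 0.354% called of all genes, gave counts near that share with all libraries in the fit: 0 of 12 hepatocyte, 0 of 8 Kupffer cell, 0 of 8 sinusoidal endothelial, 0 of 10 stellate cell, 0 of 6 bile duct, 0 of 10 lymphocyte, 0 of 7 erythroid and 0 of 3 neutrophil genes. The members with the smallest p were Fgb at -0.30, Vsig4 at 0.32, Stab2 at -0.14, Pdgfrb at -0.25, Epcam at -1.22, Ms4a1 at 2.46, Bpgm at 0.38 and S100a8 at 1.19 on the log2 scale, in the order of the lists. Without AUG_WT replicate 1, Ms4a1 had 0.81 and S100a8 0.34, and the median of the neutrophil genes was 0.06, against 0.96 with it. All 6 bile duct markers were negative (median -0.75). Without AUG_WT replicate 1, Sox9, at -1.55, and Spp1, at -1.17, were called lower in the AUG line (edgeR adjusted p = 0.0265 and 0.0276), in a fit that called 0.768% of all genes. Epcam, at -1.47 in that fit, was not called (edgeR adjusted p = 0.0525). The summed bile duct level was 33.4 to 45.3 CPM in AUG, 37.1 to 140 in AUG_WT, 54.9 to 83.5 in del7 and 49.0 to 94.4 in del7_WT. In del7 replicate 1, where Cyp46a1 was low, that sum was 54.9 CPM. The part of bile duct cells in the line difference of Cyp46a1 was not tested.

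**Figure D2:**
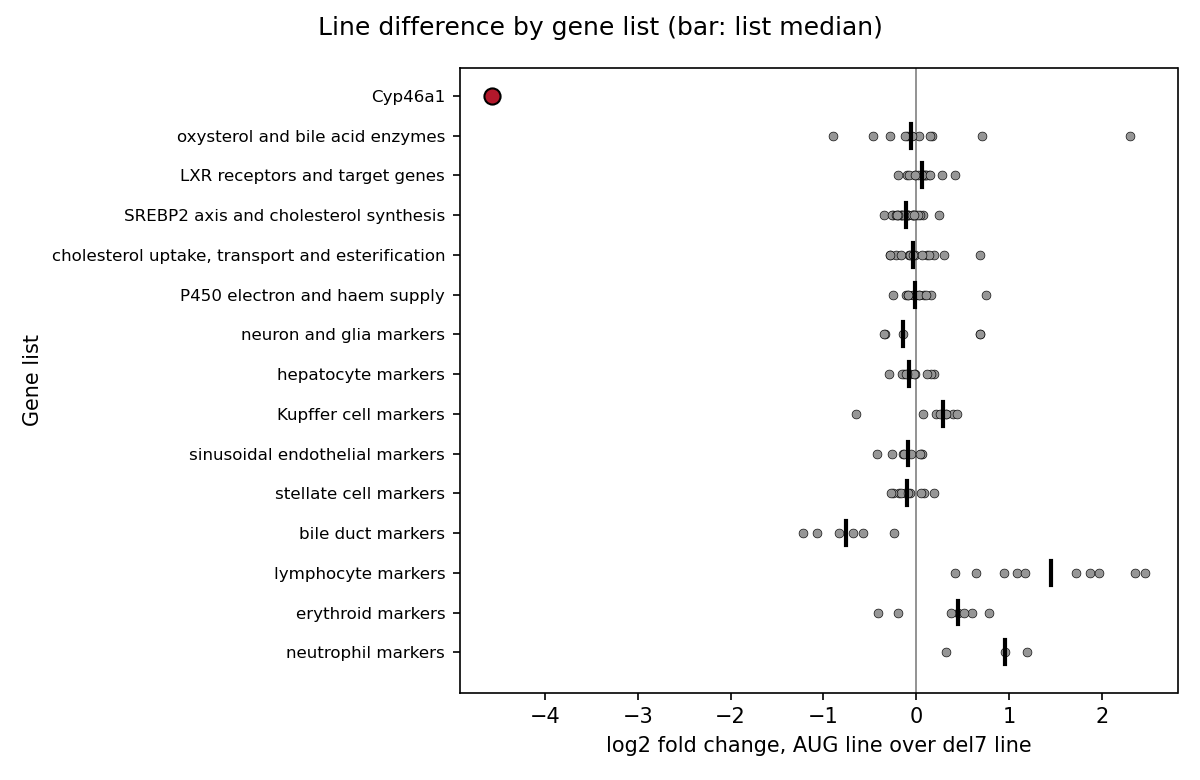
Log2 fold change of the AUG line over the del7 line (horizontal axis) for Cyp46a1 and for each tested member of 14 gene lists. Points are genes and vertical bars are list medians. Cyp46a1 lies at -4.56, while the medians of the 5 pathway lists lie between -0.11 and 0.06.

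The tested genes nearest to Cyp46a1 on chromosome 12 in annotation order, 5 on either side, had line differences between -0.76 and 1.12 on the log2 scale. Of these 10, 0 were called, near the share over all genes of 0.354%, and 0 without AUG_WT replicate 1 (0.768% of all genes) or del7 replicate 1 (0.259%). Hhipl1, a hedgehog-interacting-protein relative on the same strand just before Cyp46a1 among tested genes, stood at -0.76 on the log2 scale (SE 0.31; edgeR adjusted p = 0.477). Eml1, a microtubule-associated protein gene and the next tested gene after it, had 0.51 (SE 0.22; edgeR adjusted p = 0.515). Setd3, an actin histidine methyltransferase, had 0.27, Ccnk, a cyclin of transcription, -0.01, Ccdc85c 0.28 and Bcl11b, a T-cell transcription factor, 1.12 on the log2 scale. On the far side Evl, an actin regulator, had 1.12, Gm34220 -0.39, the transcription factor Yy1 0.04 and the mitochondrial carrier Slc25a29 -0.57. Without AUG_WT replicate 1, where Evl had 60.2 CPM, Evl had 0.16 and Bcl11b 0.21.

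**Figure D3:**
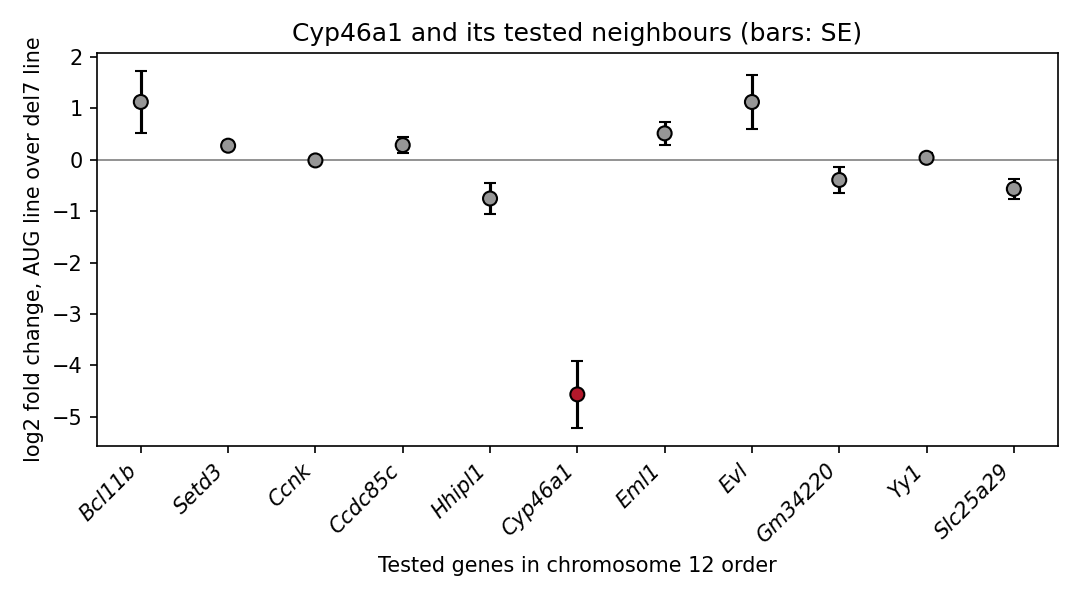
Log2 fold change of the AUG line over the del7 line for Cyp46a1 and the 5 tested genes on either side, in chromosome 12 order. Bars are standard errors. Cyp46a1 is at -4.56 and its neighbours lie between -0.76 and 1.12.

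Hhipl1 nonetheless varied with Cyp46a1 inside the del7 line. In the 4 del7 replicates it had 2.13, 5.09, 4.90 and 6.47 CPM, and in the 4 del7_WT replicates 5.81, 10.6, 3.11 and 8.67 CPM. Its lowest library was del7 replicate 1, and its 2 highest were del7_WT replicates 2 and 4, as for Cyp46a1. Pearson's r with Cyp46a1 on log2 CPM was 0.82 over the 8 libraries and 0.87 without del7 replicate 1, against 0.47 over the AUG line. The other 9 neighbours had r between -0.59 and 0.39 over the del7 line, but Yy1, at -0.59, had rho of -0.90 and r of -0.89 without del7 replicate 1.

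The departure of del7 replicate 1 was large: its 3.24 CPM lay 38.7-fold below the next lowest del7 line library and 59.9-fold below the mean of the other 7. It was also lower than 7 of the 8 AUG line libraries. The library as a whole did not stand apart, with correlations of at least 0.973 with the other del7 libraries over all tested genes and 12635721 counts in genes. Its hepatocyte markers summed to 113777 CPM, inside the range of the other del7 libraries and of del7_WT.

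The same pattern was looked for in every gene: called between the lines, the other 7 del7 line libraries all on 1 side of the 8 AUG line libraries, and del7 replicate 1 not beyond them. With all libraries in the fit 5 genes met it, and with del7 replicate 1 left out of the fit 7 did. In the second fit 38 genes were called, 18 of them separated the other 15 libraries, and in 11 of those 18 del7 replicate 1 lay with its own line. It therefore went against its line in some of the line-specific genes and not in most of them.

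Of these 7 genes 4 lie on chromosome 12, which holds 3.62% of the genes tested: Cyp46a1, Amn, Ckb and A530016L24Rik. Cyp46a1 is among them by choice, since the gene was chosen for this exception. Chromosome 12 also held 6 of the 51 genes called between the lines with all libraries in the fit. Amn is among these 6, and so is Cyp46a1, again by choice, since the gene was chosen for its line difference. The 4 exception genes follow each other in the order listed, Amn 154, Ckb 169 and A530016L24Rik 197 annotated genes beyond Cyp46a1. The chromosome has 2319 annotated genes in the table. The stretch from Cyp46a1 to A530016L24Rik holds 46 tested genes, of which 2, Cyp46a1 and Amn, were called in that fit (0.354% over all genes). Just past it, at 206 annotated genes from Cyp46a1, Cep170b was called (log2 fold change -0.50, edgeR adjusted p = 0.0254), and there del7 replicate 1, at 67.01 CPM, lay below its own line at 69.6 to 91.2 CPM but above the AUG line at 42.7 to 64.2 CPM. The rule for named genes does not cover Cep170b and A530016L24Rik, which are singled out here with their values known. No test was made of the share on chromosome 12.

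Amn, the membrane partner of cubilin, had at most 0.11 CPM in AUG, at most 0.32 in AUG_WT, then 0.16, 6.62, 1.83 and 1.74 over the del7 replicates, and 1.61, 3.25, 1.56 and 3.40 over the del7_WT replicates. A530016L24Rik had 0.08 CPM in del7 replicate 1, at most 0.42 in the AUG line and 1.06 to 4.203 in the other del7 line libraries. Ckb, the brain-type creatine kinase, ran the other way: 5.85 CPM in del7 replicate 1, 3.51 to 7.36 in the AUG line and 1.95 to 3.36 in the other del7 line libraries. In these 3 genes, and in the other 3 described next, del7 replicate 1 lay within the range of the AUG line. The rule by itself kept it from lying beyond that range on the del7 side. In Amn only AUG_WT replicate 4, at 0.32 CPM, lay above it among AUG line libraries, and in Kif5a only AUG_WT replicate 2, at 2.28 CPM. Amn, A530016L24Rik and Gm14026 were barely detected in the AUG line and passed the filter through the del7 line.

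The remaining 3 lie on other chromosomes. Kif5a, a neuronal kinesin heavy chain on chromosome 10, had 2.21 CPM in del7 replicate 1, 1.37 to 2.28 in the AUG line and 2.498 to 6.32 in the other del7 line libraries, so that its gap between the lines was narrow. The processed pseudogene Gm14026 on chromosome 2 had no count in del7 replicate 1 and 0.91 to 2.69 CPM in the other del7 line libraries. The long noncoding RNA gene AC127342.1 on chromosome 18 had 5.29 CPM in del7 replicate 1 and 11.1 to 41.0 in the others. Both are named with their values known, outside the rule. As a processed pseudogene Gm14026 may share reads with its parent gene, so its value is uncertain.

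**Figure D4:**
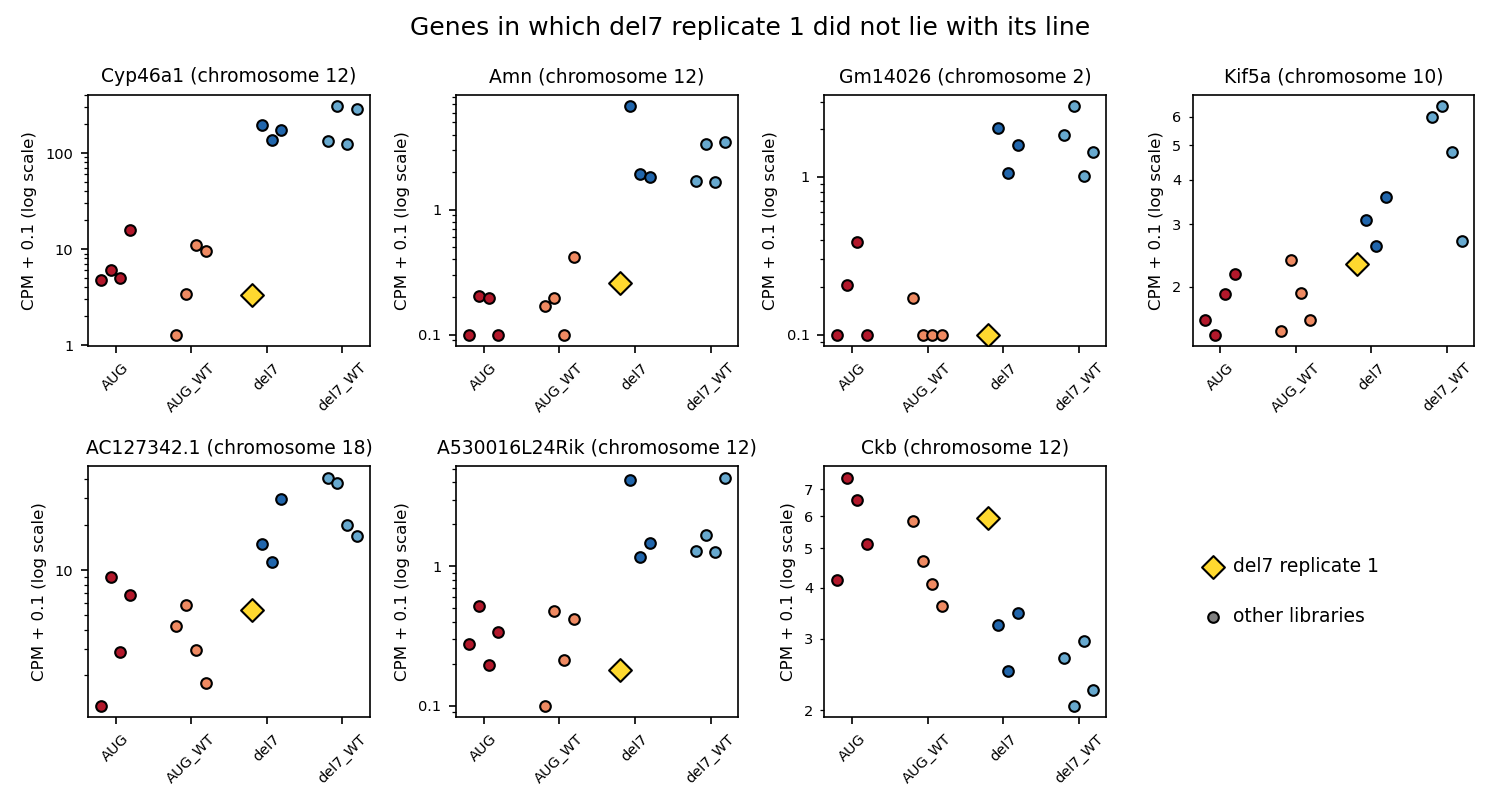
CPM plus 0.1 (log axis) in each library, by group, for the 7 genes in which del7 replicate 1 (diamond) did not lie with its line. Circles are the other libraries. The rule kept the diamond from lying beyond the AUG and AUG_WT libraries on the del7 side, and in all 7 it lies within their range.

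Such exceptions were not limited to del7 replicate 1. The same was asked of each library in turn, with that library out of the fit, over the called genes that separated the other 15. AUG_WT replicate 1 had 13 of 31 such genes and AUG_WT replicate 3 had 9 of 22. AUG replicate 4 had 6 of 16 and del7 replicate 3 had 6 of 17, beside 7 of 18 for del7 replicate 1. In del7_WT replicates 1, 2 and 3 there were 0, of 10, 11 and 11. Of the 9 in AUG_WT replicate 3, 5 lay on chromosome 1, and in del7 replicate 2, 3 of 4 lay on chromosome 10. Amn was also an exception in AUG_WT replicate 4, and Kif5a in AUG_WT replicate 2. Cyp46a1 could be an exception in del7 replicate 1 alone, the library used in choosing the gene. With any other library set aside, del7 replicate 1 keeps the lines from separating.

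Within the del7 line, the gene most like Cyp46a1 in pattern was Prodh2, which encodes the liver's hydroxyproline dehydrogenase. In the 4 del7 replicates it had 114, 154, 152 and 152 CPM, and in the 4 del7_WT replicates 146, 165, 150 and 164 CPM. The order of the libraries was nearly that of Cyp46a1, with del7 replicate 1 lowest and del7_WT replicates 2 and 4 highest, but over a much narrower range. Pearson's r on log2 CPM was 0.98 and Spearman's rho 0.98 over the 8 libraries, and r was 0.95 without del7 replicate 1 and 0.91 without the 2 libraries farthest from the median of Cyp46a1. Over the 8 AUG line libraries r was 0.73, but 0.04 without AUG_WT replicate 1. These are descriptions over libraries that share a line, with no p.

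Camk2b, a subunit of the calcium and calmodulin-dependent kinase II, came next, with r of 0.97 over the 8 del7 line libraries, 0.91 without del7 replicate 1 and 0.00 over the AUG line. In the 4 del7 replicates it had 4.27, 14.04, 12.4 and 13.6 CPM, and in the 4 del7_WT replicates 10.6, 19.98, 12.8 and 16.3 CPM. Efcc1 followed with 0.96, Met, the hepatocyte growth factor receptor, with 0.96, and Tmem260 with 0.95. Without del7 replicate 1 these 3 had 0.86, 0.45 and 0.67. None of the 5 was called between the lines.

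At the other end were Pitpnm1, a phosphatidylinositol transfer protein gene, Tpd52, Ctdnep1, a nuclear envelope phosphatase, Arfgap2, which acts on COPI vesicles, and Nrbf2, a subunit of the autophagy lipid kinase complex, all at r of -0.94. Without del7 replicate 1 their r was -0.69, -0.36, -0.87, -0.42 and -0.57 in that order. Pitpnm1 had 16.9 CPM in del7 replicate 1 and 6.504 to 9.99 in the other 7, and Ctdnep1 32.8 CPM against 27.2 to 29.9. Del7 replicate 1 was the highest del7 line library in all 5.

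**Figure D5:**
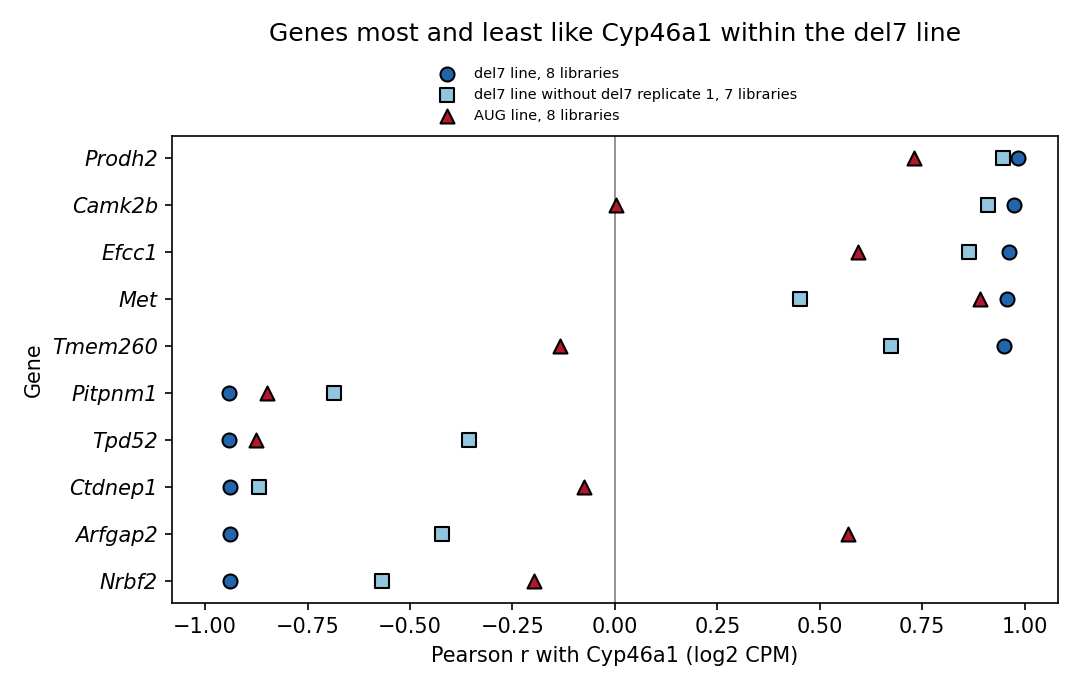
Pearson's r with Cyp46a1 on log2 CPM for the 5 genes with the highest and the 5 with the lowest r over the 8 del7 line libraries. Circles use the 8 del7 line libraries, squares the 7 without del7 replicate 1 and triangles the 8 AUG line libraries. Prodh2, Camk2b, Efcc1 and Ctdnep1 keep r beyond 0.86 in size without del7 replicate 1, and Met drops to 0.45.

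Over all 14420 other tested genes, 52 had r above 0.9 in the del7 line and 29 below -0.9, and the median r was -0.01. Of the 52, 5 were also above 0.9 without del7 replicate 1, and 3 were above 0.9 in the AUG line. The AUG line itself gave 377 genes above 0.9 and 153 below -0.9, with AUG_WT replicate 1 the lowest library in Cyp46a1 and apart from the other libraries. Among sterol genes of the del7 line, Cyp27a1 had r of 0.80, and 0.60 without del7 replicate 1, while Cyp7a1 had -0.37, Cyp7b1 0.32 and Cyp39a1 -0.01. The median r of a list in the del7 line ran from -0.43 for neutrophil genes to 0.56 for neuron and glia markers. Without del7 replicate 1 these medians were 0.08 and 0.35. Stellate cell markers had 0.39 (0.44 without del7 replicate 1), oxysterol and bile acid genes 0.14 and LXR genes -0.03. Genes of cholesterol synthesis had a median of 0.13 with del7 replicate 1 and 0.63 without it.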

How the data were processed

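RNA was measured in 16 mouse liver samples in 4 groups. Per the labels' protocols, 10 mg of tissue and 550 ng of total RNA were used, ribosomal RNA was depleted and the library kit kept the strand. The submitters' processing notes name cutadapt 2.10 for trimming, STAR 2.7.9a for alignment and the build GRCm39. Which annotation release was counted is not given in these sources. Raw whole-number counts of reads per gene were deposited, 1 table for each sample and 1 for the series. The series table was used as deposited, and all 16 of its columns held the values of the reverse-strand column of their sample. Summary lines for unmapped (2.82% to 3.93%), multimapping (9.23% to 15.0%) and no-feature reads (21.8% to 35.0%) stayed out of library sizes.

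Names, chromosomes, gene order and exon lengths came from GENCODE M21 on GRCm38, matched by Ensembl identifier without version conversion of coordinates, for 52081 of 55357 genes. Cyp46a1 is ENSMUSG00000021259, chromosome 12, protein coding, with 3287 bases of annotated exon. Counting used reads with 1 alignment, so genes with near-identical copies are uncertain. Terc itself is not analysed here.

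Counts were scaled by TMM and tested with edgeR 4.0.16 (R 4.3.3): filterByExpr with a minimum count of 10 left 14421 genes. Group means were fitted to all libraries at once (12 residual degrees of freedom) and contrasts were tested two-sided with glmQLFTest. P-values were adjusted by Benjamini-Hochberg over those genes, and a gene was called when its adjusted p was under 0.05. A prior count of 2 was used for log2 CPM. The AUG comparison also had an exact permutation test of 70 regroupings. Alternatives used DESeq2 1.42.0, limma 3.58.1 and other settings given at the end. The pipeline was tested on simulated counts.

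The gene, the lists and the rules were chosen with earlier results of these data known. The rule for named genes took Cyp46a1 and the sterol hydroxylases always, list members called by smallest p (the smallest p where none was), P450 genes called, 5 tested neighbours on either side, 5 genes at either end of r in the del7 line, and genes sharing the exception of del7 replicate 1, without clone or pseudogene names. A listed gene that the rule names is not reported here.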

Additional observations from a re-analysis of the deposited data

Results flagged for a closer look

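In AUG replicate 4 Cyp46a1 was far from the other 3 libraries of its group: its gap to the nearest library, divided by the range of the group, was 0.875 in CPM, past Dixon's limit (15.6 CPM, against 4.62 to 5.997 CPM in the other AUG libraries), and 0.789 in log2 CPM, short of it. Chance flags about 1 in 20 such groups. The del7 group was not looked at in this way, since the low value of its replicate 1 was used in choosing the gene.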

How the results depend on the processing

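The line difference of Cyp46a1 kept its direction under every alternative tried: other scaling (RLE), a filter at a mean of 1 CPM, no filter at all, DESeq2, limma voom, unstranded counts, wild types or mutants alone, and each library left out, which gave log2 fold changes of -4.87 to -4.39. AUG over AUG_WT passed under none of them and ran from -0.25, without AUG replicate 4, to 0.75 with a library left out. For del7 over del7_WT the range with a library left out was -1.03 to -0.34, and limma voom gave -1.59. The count of genes called between the lines, 51, was 164 with DESeq2, and 26 to 112 with a library left out: 112 without AUG_WT replicate 1, 29 without del7 replicate 4, and 26, 31, 31 and 33 without del7_WT replicates 1, 2, 3 and 4. Without del7 replicate 1 and AUG_WT replicate 1 together, an alternative chosen after seeing the data, it was 81. DESeq2 called 9 genes for AUG over AUG_WT, against 4, and 1 for del7 over del7_WT, against 0. With a library left out edgeR called 3 to 5 and 0 genes in these comparisons. The cause was not tested.

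The labels do not say whether replicate numbers pair the samples. Deviations of same-numbered samples had correlations of -0.16 to 0.35 in the AUG line and 0.09 to 0.28 in the del7 line. Between AUG and del7 they were 0.06 to 0.28. Such values cannot settle whether samples were paired. With a replicate block the log2 fold changes were -4.54 for the lines, 0.46 for AUG over AUG_WT (edgeR adjusted p = 0.858) and -1.19 for del7 over del7_WT, and the calls were 44, 4 and 0. For Prodh2, the gene most like Cyp46a1 in the del7 line, r stayed between 0.91 and 0.98 under the alternatives tried. Counts of Cyp46a1 were low in AUG_WT, at 17 to 120. In the shared fit the SE was 0.88 for AUG over AUG_WT and 0.78 for del7 over del7_WT. Fitted with the 2 groups alone it was 0.67 and 0.77, so neither comparison was the more precise throughout.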
